A study of Mus musculus with 8 samples.

Results

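The mitochondrial ribosomal protein genes are the nuclear genes named Mrpl (large subunit) or Mrps (small subunit) plus a number. Members were taken from the deposited count table by name: 82 of 34299 rows matched, 5 with pseudogene names were left out, and 77 genes remained, of which 48 are Mrpl and 29 are Mrps genes. The choice used names only and no measured value. RNA sequencing was done on whole mouse brain in 3 groups. The day 15 wild-type group (WT) was 3 brains of fetuses at gestation day 15, and the day 15 knockout group (KO) was 3 brains of the same age that lacked Cav1, the gene of the membrane coat protein caveolin-1. The week 70 group was 2 aged brains that also lacked Cav1. Both knockout groups lack Cav1 by their labels, and age was compared within the knockout because week 70 WT data, which the study took from an earlier project, were not analysed here. The labels describe the day 15 samples as biological replicates and give neither strain, sex nor the targeting of the allele. Polyadenylated RNA was sequenced.

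Mitochondria keep a small genome of their own, and a dedicated ribosome translates its messages, all of which encode subunits of the oxidative phosphorylation complexes. The ribosomal RNAs are mitochondrial products, but every protein of this ribosome is encoded in the nucleus and imported. The small subunit decodes the message, and the large subunit forms the peptide bonds and feeds the new chain into the inner membrane through its exit tunnel. Many nuclear genes of mitochondrial function carry sites for NRF1, for ETS factors such as GABP, and for YY1 close to their starts.

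The libraries held 14110031 to 20833397 counts, and all day 15 KO totals lay below all WT totals. Cav1 was counted 367, 218 and 329 times in the WT libraries, 0, 3 and 1 times in day 15 KO and 1 and 5 at week 70. Among 7 erythroid markers the summed level ran from 1029 to 1310 CPM (counts scaled to a fixed library total) in WT, from 3597 to 4420 in day 15 KO and from 490 to 778 at week 70. Of these, 6 of 7 were called higher and 1 lower in day 15 KO, and none was at 0 in any group. The 6 endothelial markers summed to 181 to 249 CPM in WT and 51.3 to 66.9 in day 15 KO, and all 6 were called lower. Meningeal fibroblast markers summed to 307 to 4443 CPM in WT and 67.8 to 141 in day 15 KO (4 of 6 called lower). Cartilage and bone markers summed to 172 to 601 CPM and 62.5 to 67.1 (5 of 5 tested lower), and astrocyte markers to 384 to 484 and 206 to 222 (3 of 6 lower, 1 higher). Neuronal markers, which check the labelled tissue, summed to 5350 to 5922 CPM in WT, 4478 to 4564 in day 15 KO and 7848 to 8227 at week 70. At day 15, 2 of these 7 were called higher and 4 lower. Progenitor markers summed to 1467 to 1576 CPM in WT, 1237 to 1335 in day 15 KO and 226 to 241 at week 70. Of these 7, 1 was called higher and 6 lower at day 15. The 6 oligodendrocyte markers summed to 77.8 to 94.1 CPM in the 2 fetal groups and to 13300 to 13430 at week 70. The part of these cell types in the results below was not tested. In whole tissue, fewer cells of a type and less RNA per cell cannot be told apart.

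RefSeq promoter windows, which run from 250 bases before to 50 bases after a start, were found for 68 of the 77 members (74 windows, GRCm38.p6). The search covered both strands for 4 motifs: GCGC, any base and TGCGC in a row for NRF1, CCGGAAG for ETS factors, AAGATG joined to GCGGC for YY1 and GGGGCGGGG for SP1, any of which may overlap another. The NRF1 letters occurred in 17.6% of the member windows, against 4.6% of all 32851 windows and 7.56% of those of protein-coding genes in the table. ETS letters occurred in 33.8% of member windows, against 8.86% of all windows and 13.5% of protein-coding ones. The YY1 letters were in 6.76% of member windows and 0.633% of all windows, with 1.08% among protein-coding ones. The SP1 letters were in 20.3% of member windows, 11.4% of all windows and 18.1% of protein-coding ones. Counted by gene, the SP1 share was 19.1% of members and 21% of protein-coding genes, so the order turned. These are descriptions of letters, not of binding.

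The windows of 7 members are printed because their genes carry the results below: Mrpl30, Mrpl52 and Mrps22 were among the clearer day 15 rises, Mrps12 and Mrpl45 sit at the decoding centre and the tunnel exit, and Mrpl10 and Mrps2 fell. Each runs 5′ to 3′ on the gene's strand from 150 bases before to 30 bases after the start, with motif matches in capitals. Mrpl30 (chr1:37890327-37890506, plus strand) has 1 NRF1 match and Mrpl45 (chr11:97315566-97315745, plus strand) has 3. The ETS letters stand 2 times in Mrpl52 (chr14:54426759-54426938, plus strand), in reverse complement, and 1 time in Mrps12 (chr7:28741792-28741971, minus strand). Mrps22 (chr9:98601650-98601829, minus strand) has 1 SP1 and 1 ETS match. Mrpl10 (chr11:97041432-97041611, plus strand) and Mrps2 (chr2:28467916-28468095, plus strand) have none of the 4.
Mrpl30: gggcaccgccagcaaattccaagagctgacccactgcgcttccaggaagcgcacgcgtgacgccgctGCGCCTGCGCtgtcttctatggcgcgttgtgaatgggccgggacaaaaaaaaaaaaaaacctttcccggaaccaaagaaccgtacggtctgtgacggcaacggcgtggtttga
Mrpl45: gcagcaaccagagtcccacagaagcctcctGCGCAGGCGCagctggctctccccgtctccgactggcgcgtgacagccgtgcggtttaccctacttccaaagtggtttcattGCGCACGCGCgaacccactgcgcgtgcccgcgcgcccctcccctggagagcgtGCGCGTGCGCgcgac
Mrpl52: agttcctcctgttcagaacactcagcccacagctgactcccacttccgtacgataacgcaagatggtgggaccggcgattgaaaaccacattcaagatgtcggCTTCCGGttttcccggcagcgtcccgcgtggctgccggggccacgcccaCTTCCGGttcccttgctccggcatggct
Mrps12: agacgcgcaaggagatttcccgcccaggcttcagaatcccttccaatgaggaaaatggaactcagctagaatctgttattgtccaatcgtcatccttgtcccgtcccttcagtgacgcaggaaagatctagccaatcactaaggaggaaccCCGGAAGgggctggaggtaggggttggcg
Mrps22: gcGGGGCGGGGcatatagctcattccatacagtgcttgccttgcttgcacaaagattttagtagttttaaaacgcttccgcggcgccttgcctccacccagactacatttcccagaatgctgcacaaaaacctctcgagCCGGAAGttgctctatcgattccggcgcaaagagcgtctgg
Mrpl10: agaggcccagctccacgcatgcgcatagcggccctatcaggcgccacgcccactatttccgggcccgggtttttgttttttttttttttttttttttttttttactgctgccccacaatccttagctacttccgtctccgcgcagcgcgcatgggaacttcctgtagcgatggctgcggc
Mrps2: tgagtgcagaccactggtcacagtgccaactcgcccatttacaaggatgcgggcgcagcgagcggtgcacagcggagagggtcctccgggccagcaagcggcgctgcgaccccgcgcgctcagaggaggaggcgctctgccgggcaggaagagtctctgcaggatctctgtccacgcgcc

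Members were called higher at day 15 both with and without a match. Of 13 members with NRF1 letters, 10 were called higher in day 15 KO and 0 lower, by the edgeR test described below, which called 30.1% of all genes tested higher and 32.5% lower. Of 25 with ETS letters, 20 were called higher and 0 lower. The 22 members with a window but none of the 4 motifs had 17 called higher and 2 lower, Mrpl10 and Mrps2, and their median log2 fold change of 0.59 was above the 0.43 of the 46 members with a motif. A further property of the start regions was shared. A protein-coding neighbour started within 1000 bases on the opposite strand, pointing away, at 18 of 77 members (23.4%), against 7.97% of 18215 protein-coding genes. Starts were taken here as the outermost annotated ends of each gene, not as the RefSeq starts of the windows. Mrpl46 and Mrps11, on opposite strands with overlapping RefSeq windows, are therefore not in this count. The neighbours of the 18 members did not follow them closely at day 15. Both genes were called in 7 of the 18 pairs, 4 times in the same and 3 times in opposite directions, and the neighbours' median log2 fold change was -0.16 against 0.26 for their members. Mrpl51, whose start lies 100 bases from that of the condensin gene Ncapd2, had a log2 fold change of 0.62 (adjusted p = 5.86e-05, edgeR) while Ncapd2 had -1.02 (adjusted p = 3.35e-07). Mrpl32 and the proteasome gene Psma2, 75 bases apart, both rose, with log2 fold changes of 0.87 and 1.04.

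As a share of all counts, the 77 members took 0.179% to 0.183% in WT, 0.288% to 0.292% in day 15 KO and 0.254% and 0.240% at week 70. Levels are given below as CPM scaled by trimmed mean of M values (TMM) over all 8 libraries. The large subunit genes summed to 1161, 1182 and 1172 CPM in the WT libraries, to 1682, 1647 and 1674 in day 15 KO and to 2240 and 2080 at week 70. The small subunit genes summed to 587, 609 and 614 CPM in WT, to 819, 806 and 777 in day 15 KO and to 1149 and 1051 at week 70. The 3 groups did not overlap in either sum. The step from WT to day 15 KO was present under every scaling, whereas the step from day 15 KO to week 70 was not. With plain CPM the large subunit sum was 1594 to 1681 at week 70 and 1944 to 1969 in day 15 KO, so the order of these groups was turned. With upper-quartile scaling the large subunit ranges overlapped, at 1822 to 1997 and 1838 to 1887. The small subunit sum was likewise turned with plain CPM, at 806 to 863 at week 70 and 914 to 959 in day 15 KO. With upper-quartile scaling it did not overlap, at 921 to 1025 and 876 to 904.

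**Figure D1:**
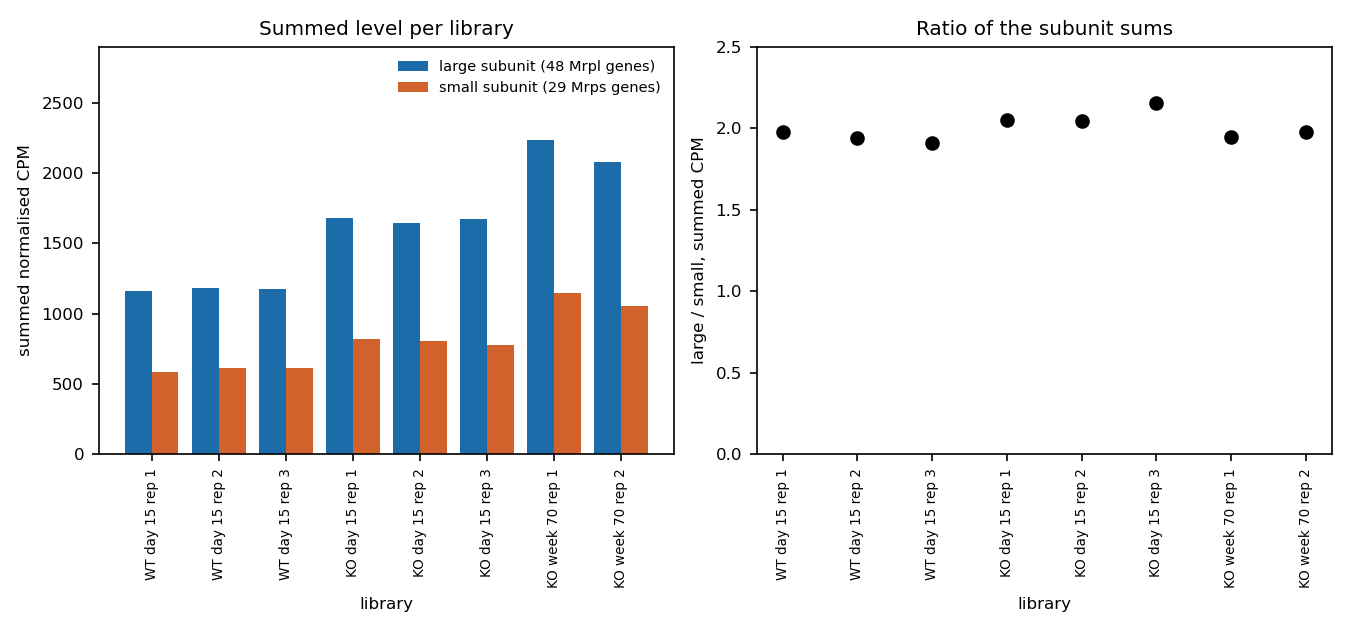
Left: summed TMM-normalised CPM (y axis) of the 48 large subunit genes (blue bars) and 29 small subunit genes (orange bars) in each of the 8 libraries. Right: the ratio of the sums in each library, which lies between 1.91 and 2.15; week 70 bars are the tallest here but fall below those of day 15 KO with plain CPM.

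The balance between the subunits differed little. The ratio of large to small subunit sums was 1.98, 1.94 and 1.91 in WT, 2.05, 2.04 and 2.15 in day 15 KO and 1.95 and 1.98 at week 70. Day 15 KO libraries lay above all WT libraries, at a mean of 2.08 ± 0.0611 (SD, n = 3) against 1.94 ± 0.0345 (SD, n = 3), and week 70 libraries lay inside or beside the WT range. The ratio of the subunits' medians per kilobase of transcript did overlap between the fetal groups, at 1.24 to 1.29 in WT and 1.19 to 1.49 in day 15 KO. The difference in the balance between the fetal groups therefore rests on the sums, to which abundant members contribute most. At week 70 the ratio of medians per kilobase was 1.35 and 1.47, above all WT libraries. With subunits by structure, the week 70 ratio of sums lay nearer to day 15 KO than to WT. The place of week 70 beside WT thus holds for the sums by name only. Large subunit genes gained a net 496 CPM from WT to day 15 KO, and the 5 with the greatest gains, Mrpl30, Mrpl52, Mrpl20, Mrpl50 and Mrpl33, gave 34.2% of it. Small subunit genes gained a net 197.6 CPM, and Mrps21, Mrps24, Mrps15, Mrps22 and Mrps14 gave 44.9% of it.

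The members had very unequal transcript levels. Per kilobase of transcript, the standard deviation of the log2 level over the 77 members was 1.09 to 1.13 in WT, 1.20 to 1.21 in day 15 KO and 1.07 to 1.10 at week 70. The median large subunit gene stood at 20.2 ± 0.518 CPM per kilobase in WT (SD, n = 3), 23.8 ± 1.40 in day 15 KO (SD, n = 3) and 37.7 ± 0.849 at week 70 (SD, n = 2). The median small subunit gene stood at 16.01 ± 0.125, 17.5 ± 2.48 and 26.8 ± 0.948 CPM per kilobase. On this median measure, small subunit values of 1 day 15 KO library were below those of WT, so the fetal groups overlapped. Mrpl52 was the highest large subunit gene in both fetal groups, at 82.9 CPM per kilobase in WT and 162 in day 15 KO, and Mrpl20 led at week 70 with 118. Mrps17 led the small subunit in WT with 61.9 CPM per kilobase, and Mrps21 led in day 15 KO with 98.7 and at week 70 with 115. The lowest were Mrpl47 in WT (3.95) and at week 70 (5.88), Mrpl19 in day 15 KO (4.97), Mrps36 in WT (1.78) and day 15 KO (3.58), and Mrps25 at week 70 (6.14), all in CPM per kilobase. By structure, Mrps36 is a part of 2-oxoglutarate dehydrogenase and not of this ribosome. Pseudogenes assigned to it, described below, held 86.7% to 91.5% of the counts of both in WT. For Mrpl23 and Mrps33 this WT share was 80.7% to 83.6% and 74.0% to 82.7%. The part of read assignment in these levels was not tested.

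**Figure D2:**
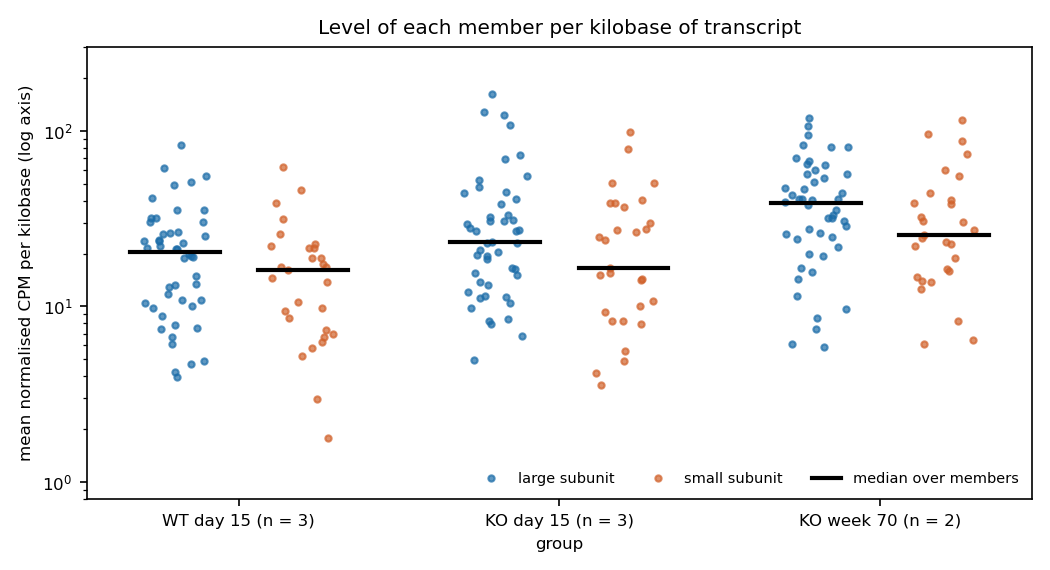
Mean TMM-normalised CPM per kilobase of transcript (y axis, log scale) of each member in the 3 groups, with large subunit genes in blue and small subunit genes in orange. Black lines are medians over members of these group means; points spread from 1.78 (Mrps36, WT) to 162 (Mrpl52, day 15 KO), and the large subunit median lies above the small subunit median in each group.

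At day 15, most mitochondrial ribosomal protein genes were higher without Cav1. All 77 members passed the filter on low counts, and 55 were called higher and 4 lower at an adjusted p under 0.05 (edgeR quasi-likelihood test, Benjamini-Hochberg adjustment over 19147 genes), with 18 not called. The share called in either direction was 76.6%, against a background of 62.6% of all genes tested. The shares called higher and lower were 71.4% and 5.19%, against 30.1% and 32.5%. The median log2 fold change was 0.48 over members and 0.03 over all genes. CPM of the groups did not overlap for 67 members, 59 of them higher and 8 lower in KO, against a background of 68.3% without overlap. The depth of the libraries and the cell type marker sums above moved with the same contrast.

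Both subunits took part. In the large subunit, 35 of 48 genes were called higher and 3 lower, with a median log2 fold change of 0.52. In the small subunit, 20 of 29 were called higher and 1 lower, with a median of 0.43. The difference between subunits was likewise given no test. By structure, Mrps30 and Mrps18a belong to the large subunit and Mrps36 to 2-oxoglutarate dehydrogenase. With these moved or left out, 36 of 50 large and 18 of 26 small subunit genes were called higher, with medians of 0.50 and 0.41. Lists of proteins with a bacterial counterpart and of proteins found in mitochondria alone, drawn up by structure with Mrps30 in the large subunit and with some members on neither list, both had more genes called higher than lower, and the difference between them was not tested. In the large subunit, 21 of 29 and 13 of 19 were called higher, with medians of 0.52 and 0.45. In the small subunit, 12 of 16 and 6 of 9 were called higher, with medians of 0.49 and 0.35.

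**Figure D3:**
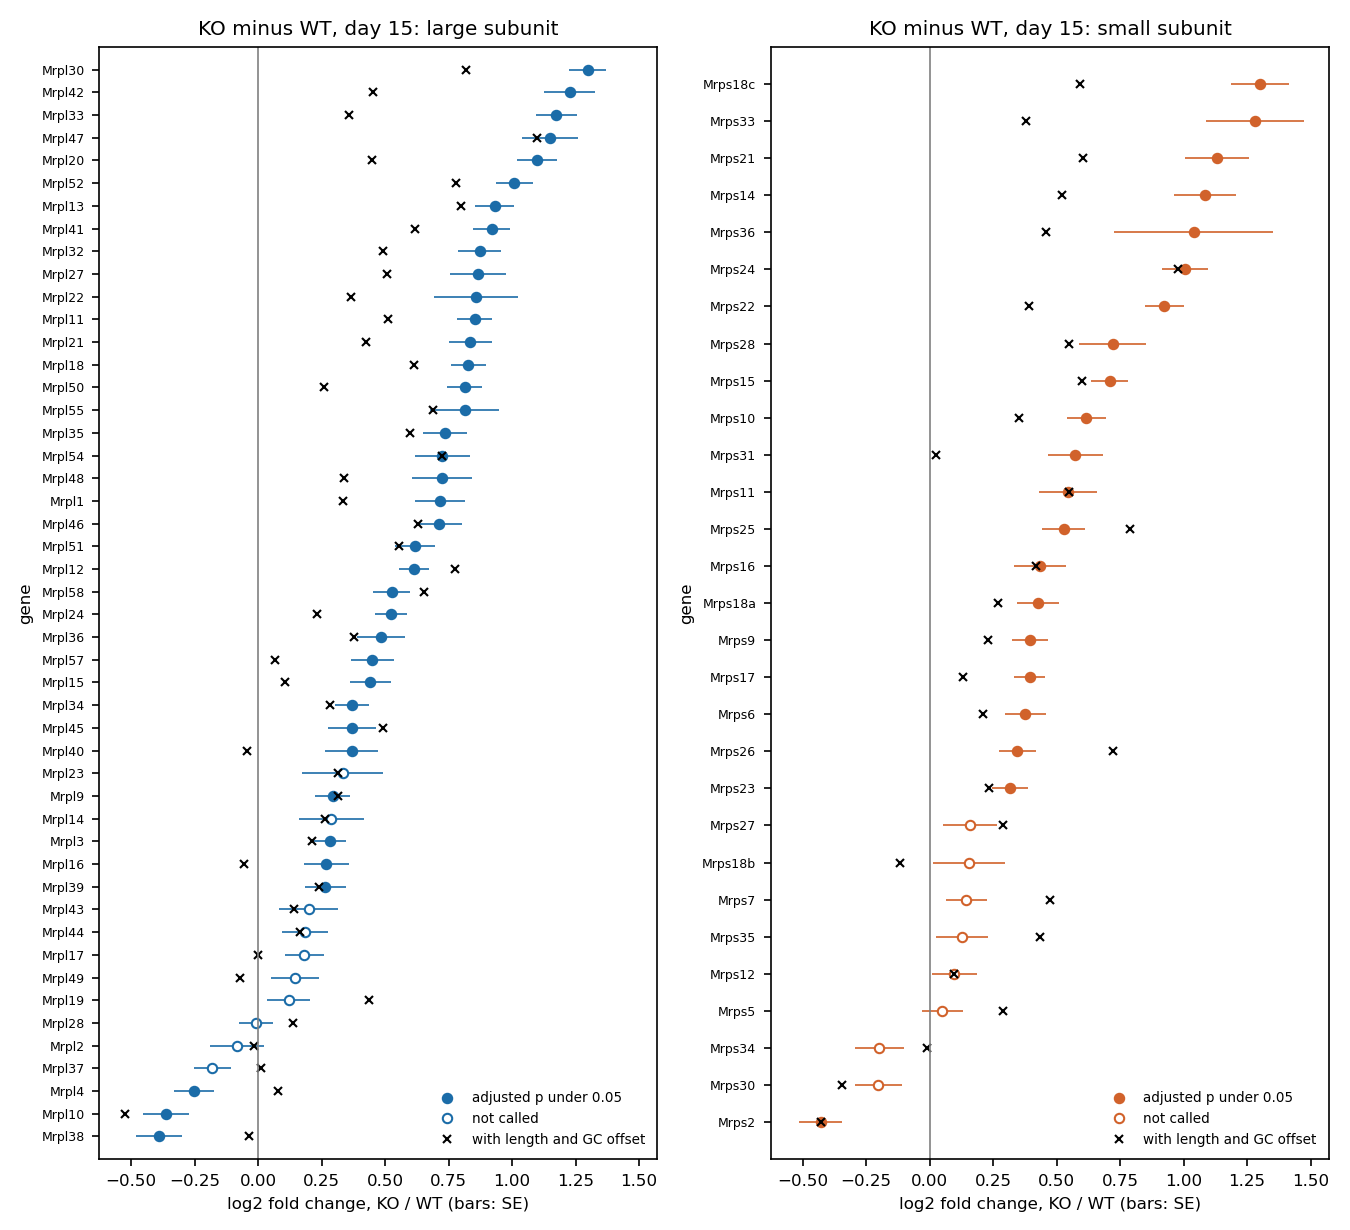
Log2 fold change of KO over WT at day 15 (x axis) for each large (left) and small (right) subunit gene, with bars for the standard error; filled points passed an adjusted p of 0.05, open points did not, and crosses show the value with an offset for transcript length and GC content. Most filled points lie right of 0, from Mrpl30 and Mrps18c at 1.30 to Mrps2 at -0.43, and most crosses lie closer to 0.

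Short transcripts are common among the members, whose median length was 1162 bases against 2561.5 for tested protein-coding genes, with a median GC content of 50.5% against 51%. Over the 77 members the day 15 log2 fold change had a Spearman correlation of -0.38 with length and -0.34 with GC content, as a description across genes of the same libraries. With an offset for length and GC content in each library, these became -0.08 and -0.07, and 51 members were called higher and 3 lower. The background with that offset was 49.8% called, 24.5% higher and 25.4% lower. Of the 55 members called higher, 46 were also called higher with the offset, and the medians became 0.35 for the large and 0.38 for the small subunit. With upper-quartile scaling, which moved the median of all genes by 0.17, 68 members were called higher and 1 lower, against a background of 65.5% called, 39.8% higher and 25.7% lower. A different scaling moves every gene by about the same amount, so the members' gap of 0.45 above all genes stays the same by construction.

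The largest log2 fold changes, close to each other, were those of Mrps18c and Mrpl30. Mrps18c (chr5:100798627-100804471) is 1 of 3 mitochondrial counterparts of bacterial ribosomal protein S18. It stood at 10.4, 10.4 and 11.3 CPM in WT and at 22.0, 27.0 and 27.9 in day 15 KO. The groups did not overlap, and the log2 fold change was 1.30 (SE 0.12, adjusted p = 3.57e-06, edgeR). With the offset for length and GC content it was 0.59. Mrps18a, its paralog in the large subunit, stood at 23.2, 23.1 and 25.9 CPM in WT and 30.5, 31.2 and 32.8 in the knockouts, a log2 fold change of 0.43. Mrps18b, the other small subunit paralog, stood at 6.46, 5.54 and 5.73 CPM in WT and 6.31, 6.18 and 6.73 in KO, so the groups overlapped and it was not called (log2 fold change 0.16, adjusted p = 0.361, edgeR).

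Mrpl30 (chr1:37890477-37898535), a counterpart of bacterial L30 whose promoter is shown above, stood at 33.7, 36.4 and 31.8 CPM in WT and 78.9, 78.2 and 86.6 in KO. Every KO library was more than 2-fold above every WT library, and the log2 fold change was 1.30 (SE 0.07, adjusted p = 1.6e-07, edgeR). It was 0.82 with the length and GC offset. Mrps33 (chr6:39801804-39810988), a small subunit protein without a bacterial counterpart, stood at 4.07, 5.75 and 5.18 CPM in WT and 11.5, 14.5 and 9.40 in the knockouts. Its log2 fold change was 1.28 (SE 0.19, adjusted p = 0.000185, edgeR), and with the offset it was 0.38 and not called (adjusted p = 0.132, edgeR). Mrpl42 (chr10:95480805-95501940), a large subunit protein of mitochondria alone, stood at 17.3, 14.1 and 14.4 CPM in WT and 34.9, 31.9 and 37.5 in KO. The log2 fold change was 1.23 (SE 0.10), and 0.45 with the offset. Mrpl33 (chr5:31596935-31664384), the counterpart of bacterial L33, stood at 23.7, 21.7 and 24.6 CPM in WT and 51.0, 47.6 and 55.2 in KO. It had a log2 fold change of 1.17 (SE 0.08), and of 0.36 with the offset.

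Only 4 members were called lower. Mrps2 (chr2:28468066-28471178), the counterpart of bacterial S2 at the back of the small subunit, stood at 30.1, 27.8 and 28.4 CPM in WT and at 22.5, 20.4 and 19.5 in KO. The groups did not overlap, and the log2 fold change was -0.43 (SE 0.08, adjusted p = 0.00109, edgeR), with the same value under the length and GC offset. Mrpl10 (chr11:97041560-97049213), which anchors the L7/L12 stalk that recruits translation factors, stood at 26.5, 24.1 and 28.3 CPM in WT and at 20.8, 20.3 and 18.5 in the knockouts. Its log2 fold change was -0.36 (SE 0.09, adjusted p = 0.00523, edgeR), and -0.53 with the offset. Mrpl38 of the central protuberance had a log2 fold change of -0.39, but -0.04 with the offset (adjusted p = 0.791, edgeR). Mrpl4, the counterpart of bacterial L4 in the tunnel wall, had -0.25 and changed sign to 0.08 with the offset, so for these genes the direction or the call rests on the processing. Under upper-quartile scaling Mrps2 alone of the 4 was called lower.

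The other parts of the L7/L12 stalk went the opposite way to Mrpl10. Mrpl12, which also associates with the mitochondrial RNA polymerase, stood at 40.4, 40.3 and 38.6 CPM in WT and 60.6, 60.6 and 56.5 in the knockouts, a log2 fold change of 0.61 (SE 0.06, adjusted p = 7.92e-06, edgeR) that was 0.77 with the offset. Mrpl11, at the base of the stalk, stood at 31.9, 35.6 and 33.3 CPM in WT and 60.2, 60.2 and 56.6 in the knockouts, a log2 fold change of 0.85. Of 8 genes of the exit tunnel and its surroundings, 5 were called higher and 0 lower (8 higher with upper-quartile scaling). Mrpl45, which docks the ribosome at the inner membrane, had a log2 fold change of 0.37 (SE 0.09), while Mrpl44 had 0.18 and was not called (adjusted p = 0.104, edgeR). Of 7 genes of the central protuberance, 6 were called higher, among them Mrpl58, a peptidyl-tRNA hydrolase built into the large subunit (log2 fold change 0.53), and 1, Mrpl38, lower. Mrps12, the decoding centre protein, stood at 16.3, 16.8 and 16.2 CPM in WT and 17.6, 16.9 and 17.0 in KO. These values do not overlap, but the difference was small and not called (log2 fold change 0.10, adjusted p = 0.354, edgeR).

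Among 13 members whose human counterparts are linked to inherited disorders of oxidative phosphorylation, 9 were called higher and 1 lower. Mrps22 stood at 19.0, 19.7 and 19.2 CPM in WT and 36.3, 36.7 and 34.0 in the knockouts, a log2 fold change of 0.92 (SE 0.08). Mrps16 stood at 15.2, 15.7 and 17.7 CPM in WT and 22.4, 22.2 and 19.3 in the knockouts, a log2 fold change of 0.43 (SE 0.10). Mrps30 had a log2 fold change of -0.20 and was not called (adjusted p = 0.0846, edgeR), although it was called lower with the length and GC offset at -0.35. Mrps36 was counted 15, 26 and 21 times in the WT libraries and 39, 26 and 40 times in KO, the fewest of all members. Its log2 fold change of 1.04 (SE 0.31, adjusted p = 0.0145, edgeR) lost its call when WT replicate 1 (0.81), KO replicate 1 (0.91) or KO replicate 3 (0.94) was left out.

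Other genes of mitochondrial translation were called in both directions at day 15. Over 95 genes for translation factors, aminoacyl-tRNA synthetases, ribosome assembly factors and mitochondrial DNA transcription and RNA processing, 33 were called higher and 35 lower (34.7% and 36.8%, near the background of 30.1% and 32.5%), with a median log2 fold change of 0.08. With the length and GC offset the counts were 30 and 16 (31.6% and 16.8%, against a background of 24.5% and 25.4%), with a median of 0.14. With upper-quartile scaling they were 45 and 21 (median 0.25), against a background of 39.8% and 25.7%. Translation factors had 7 of 18 higher and 7 lower. Tufm, the elongation factor that brings tRNAs to the ribosome, stood at 11.4, 11.8 and 11.8 CPM in WT and 9.83, 8.24 and 7.77 in the knockouts, a log2 fold change of -0.40 (SE 0.12, adjusted p = 0.0169, edgeR) that was -0.12 with the offset and -0.23 with upper-quartile scaling. Slirp, which with Lrpprc stabilises mitochondrial messages, had a log2 fold change of 1.76 (SE 0.14) and Lrpprc one of -0.44 (SE 0.06). Of the synthetases, 5 of 22 were called higher and 11 lower, with a median of -0.16. With the offset 5 were higher and 5 lower (median 0.09), and with upper-quartile scaling 8 and 6 (median 0.01). Lars2, the leucyl-tRNA synthetase, stood at 437, 801 and 514 CPM in WT and at 61.5, 37.7 and 37.9 in the knockouts, a log2 fold change of -3.64 (SE 0.25). Every WT library was above every KO library, though WT libraries differed among themselves.

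Assembly factors had 11 of 31 called higher and 11 lower (10 and 2 with the offset, 12 and 5 with upper-quartile scaling), with Mterf3 at 1.05 and the helicase gene Ddx28 at -0.77. Genes of mitochondrial transcription and RNA processing had 10 of 24 higher and 6 lower (8 and 3, then 16 and 4). Polrmt, the mitochondrial RNA polymerase, had a log2 fold change of -0.80 that was 0.07 with the length and GC offset, and Tfam, which packs mitochondrial DNA, had 0.54 that was -0.13 with it, so both directions flip with that choice. All 13 mitochondrially encoded messages, the products this ribosome translates, were called higher with a median of 1.12, but with the offset 2 were higher and 9 lower. A further 6 genes were listed as mitoribosomal under other names, and not all need be parts of the ribosome. Among them, Chchd1 had a log2 fold change of 1.39, and Dap3, a GTP-binding protein of the small subunit, stood at 64.3, 64.2 and 66.7 CPM in WT and 58.9, 57.4 and 58.8 in KO without being called (-0.12, adjusted p = 0.0832, edgeR). Of 9 regulators of mitochondrial gene expression, 0 were called higher and 4 lower (2 and 5 with the offset). Nrf1 had a log2 fold change of -0.30 (adjusted p = 0.00203, edgeR) and Gabpa, the DNA-binding part of GABP, one of 0.05 (adjusted p = 0.489, edgeR). Yy1 had -0.92 (adjusted p = 3.22e-07, edgeR), which was -0.24 with the offset. Myc had the largest fall of the 9, at -1.06. The nuclear genes of the oxidative phosphorylation complexes had 73 of 93 tested called higher, 6 lower and a median log2 fold change of 0.87, which was 0.53 with the offset. Protein genes of the cytosolic ribosome had 74 of 80 tested called higher and 1 lower (92.5% and 1.25%, against a background of 30.1% and 32.5%). Their median was 0.90, above that of the members, and 0.57 with the offset, so the rise was not particular to the mitochondrial ribosome.

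From day 15 to week 70 in the knockout the members moved in both directions. The submitters' processing notes name 2 genome builds without roles, and whether both ages were aligned and counted in the same way is not given in the sources used here, so age and a difference in processing cannot be told apart in these values. This comparison uses the same day 15 KO libraries as the first, so a high day 15 KO value raises the first difference and lowers the second. With TMM scaling, 46 of 77 members were called higher and 16 lower at week 70 and 15 were not called (edgeR, adjusted over 20000 genes), and with upper-quartile scaling, which moved the median of all genes by -0.25, 28 were higher and 26 lower. With TMM the share called was 80.5%, close to the background of 82%, and the shares higher and lower were 59.7% and 20.8%, against 37.6% and 44.4%. With upper-quartile scaling the shares higher and lower were 36.4% and 33.8%, against a background of 32.4% and 49.8%, with 82.3% of all genes called. CPM did not overlap for 65 members, against a background of 87.9%. The members' median under TMM was 0.40, which lay 0.59 above the median of all genes, -0.19. Under upper-quartile scaling these medians were 0.15 and -0.44, with the same gap by construction. With TMM, 29 large subunit genes were higher and 11 lower, with a median of 0.39. In the small subunit 17 were higher and 5 lower with a median of 0.42.

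Some members have processed pseudogenes, intronless copies elsewhere in the genome, whose counts differed sharply between the ages. By alignment of transcripts, 40 pseudogenes in the table were assigned to 24 members. They held 17.2% to 18.1% of the counts of these members and their pseudogenes in WT and 15.8% to 16.8% in day 15 KO, but 1.97% and 1.24% at week 70. Mrpl23, a protein at the tunnel exit, had 97, 104 and 84 counts in WT, 92, 108 and 95 in day 15 KO and 587 and 573 at week 70. Its pseudogene Mrpl23-ps1 had 405, 436 and 429 counts in WT, 566, 496 and 499 in day 15 KO and 5 and 6 at week 70. The gene's log2 fold change of 2.68 became -0.03 when both were summed. The cause of this shift was not tested, and the handling of reads with several matches is not given in the sources used here.

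**Figure D4:**
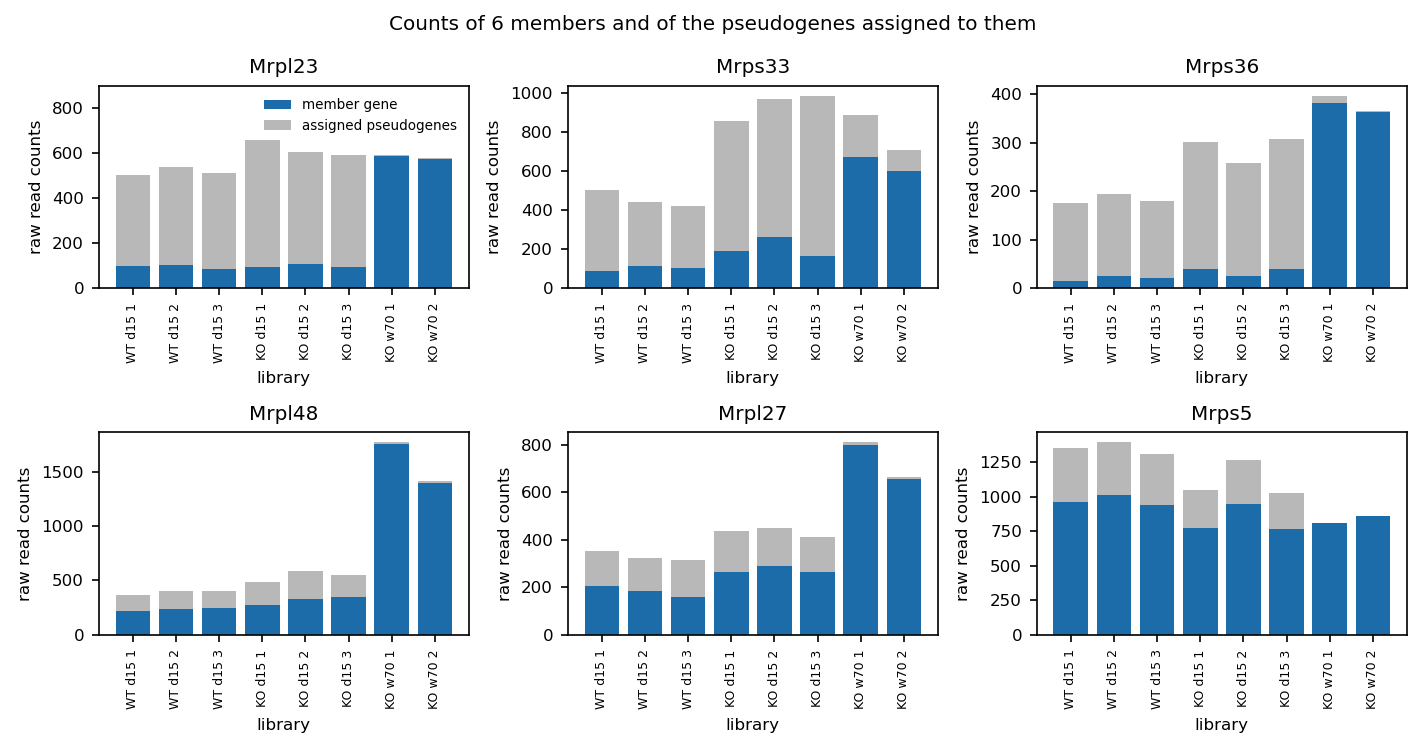
Raw read counts (y axis) of 6 members (blue) and of the pseudogenes assigned to them (grey, stacked) in each of the 8 libraries. For Mrpl23 the grey part falls from 405 to 566 counts in the fetal libraries to 5 and 6 at week 70 while the blue part rises from at most 108 to at least 573.

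With pseudogene counts added to their parent genes, 39 members were called higher at week 70 and 20 lower, against a background of 81.1% called, 37.8% higher and 43.4% lower. All 39 had been called higher without the addition. The medians became 0.26 for the large and 0.34 for the small subunit. Mrps36, the largest difference without it, had 382 and 363 counts at week 70, and its log2 fold change of 3.52 (SE 0.21) became 0.45 (adjusted p = 0.0103, edgeR). Mrps36-ps1 alone had 191 to 218 counts in day 15 KO and 0 in both week 70 libraries. Mrps33 had 190, 261 and 162 counts in day 15 KO and 671 and 601 at week 70, and its pseudogene Gm5776 had 655, 703 and 818, then 212 and 101. Its log2 fold change of 1.76 became -0.19 and was no longer called (adjusted p = 0.119, edgeR).

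**Figure D5:**
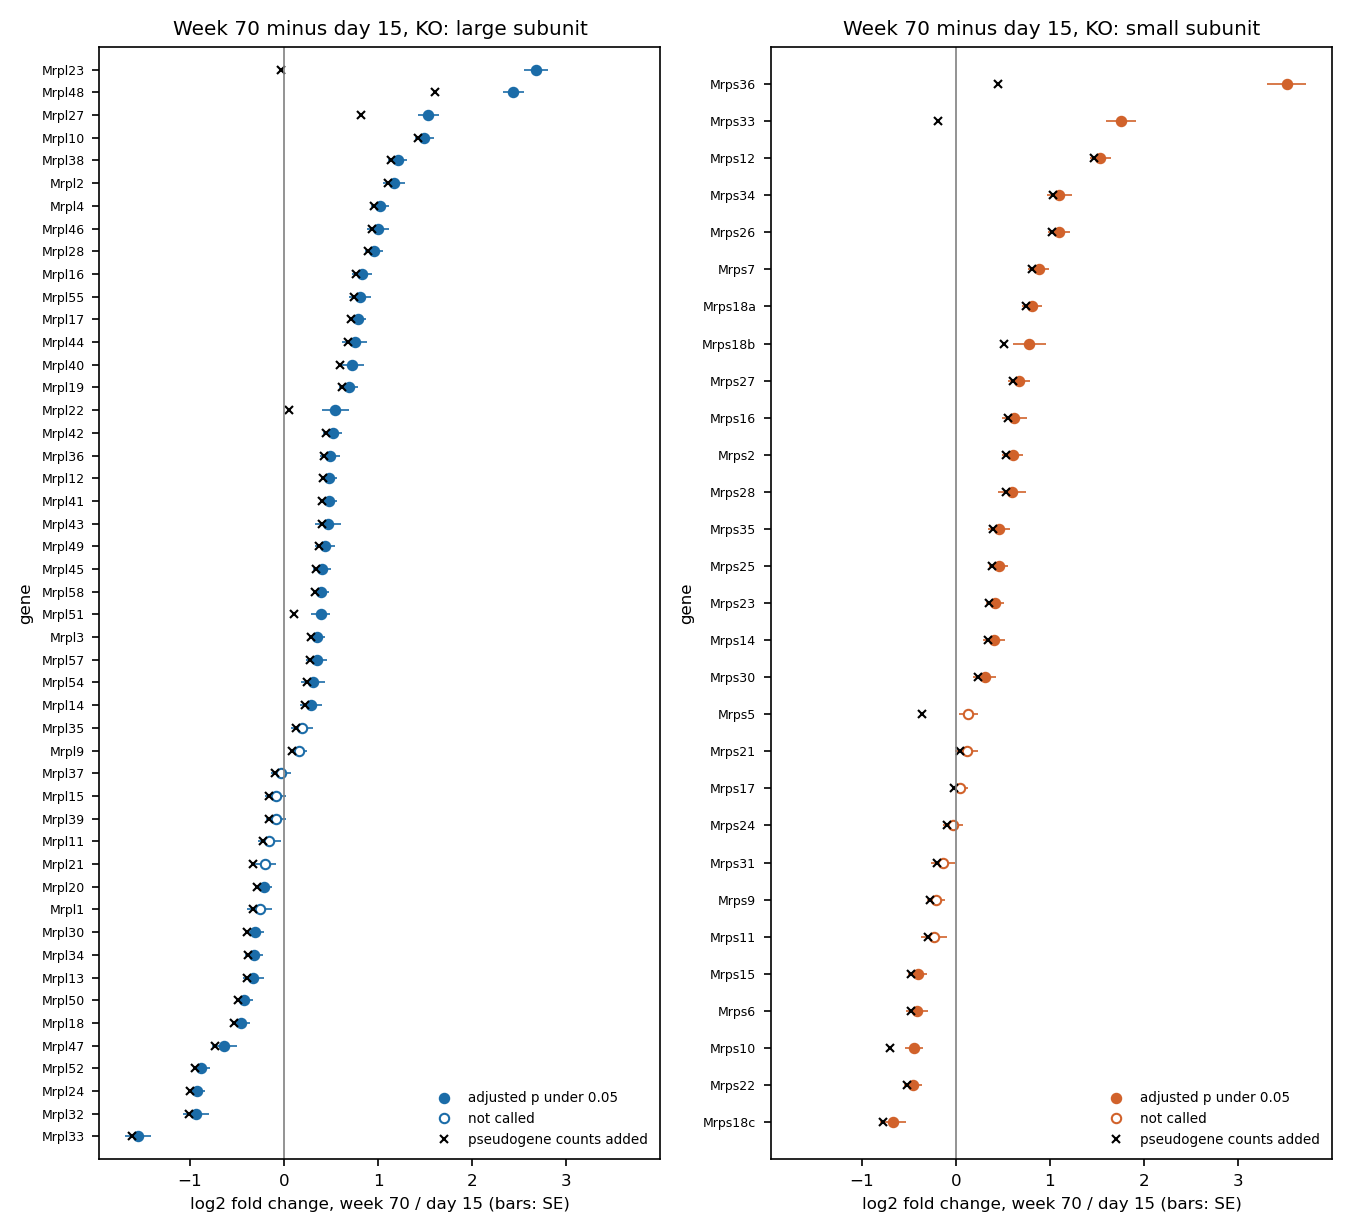
Log2 fold change of week 70 over day 15 in the knockout (x axis) for each large (left) and small (right) subunit gene, with bars for the standard error; filled points passed an adjusted p of 0.05, and crosses show the value after pseudogene counts were added to their parent genes. The crosses of Mrpl23, Mrps33 and Mrps36 lie far left of their points, while those of Mrpl10, Mrpl48 and Mrps12 lie at 1.42, 1.60 and 1.47.

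Other week 70 rises were still called with pseudogene counts added. Mrpl48 (chr7:100545751-100608301) of the central protuberance stood at 16.5, 18.5 and 20.01 CPM in day 15 KO and 116 and 96.7 at week 70, above every fetal library. Its log2 fold change was 2.44 (SE 0.11, adjusted p = 1.21e-08, edgeR), and 1.60 with the counts of its pseudogene added. Mrps12 (chr7:28739641-28741820), which had hardly differed between the fetal groups, rose from 17.6, 16.9 and 17.0 CPM to 58.2 and 48.5, a log2 fold change of 1.54 (SE 0.11, adjusted p = 3.18e-07, edgeR) that was 1.47 with pseudogenes added. Mrpl10 rose from 20.8, 20.3 and 18.5 CPM to 61.1 and 58.5, a log2 fold change of 1.49 (SE 0.10). All 4 members called lower in day 15 KO were called higher at week 70. The 2 comparisons share the day 15 KO libraries, so a low day 15 KO value favours this pair of calls. The share of all genes with this pair of calls was not counted.

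Mrpl33 had the largest fall, from 51.0, 47.6 and 55.2 CPM in day 15 KO to 15.9 and 21.6 at week 70. The log2 fold change was -1.55 (SE 0.14, adjusted p = 2.09e-06, edgeR), but the sign turned to 0.87 with the length and GC offset. Mrpl32, the counterpart of bacterial L32, which a membrane protease must cut before it assembles, went from 37.1, 38.7 and 43.9 CPM to 25.1 and 19.6, a log2 fold change of -0.94 that was 0.09 and not called with the offset (adjusted p = 0.534, edgeR). Mrpl24 of the tunnel wall went from 55.8, 52.0 and 55.2 CPM to 30.9 and 30.1, a log2 fold change of -0.93 (SE 0.09) and the only fall that was still called with the offset (-0.30, adjusted p = 0.0109, edgeR). Mrpl52 went from 70.9, 67.1 and 65.8 CPM to 41.4 and 37.7, a log2 fold change of -0.88, and Mrps18c from 22.0, 27.0 and 27.9 CPM to 17.8 and 16.9, a log2 fold change of -0.66. Both turned to called rises with the offset, at 0.81 for Mrpl52 and 1.06 for Mrps18c. With the offset for length and GC content, 64 members were called higher and 1 lower, against a background of 79.1% called, 43.1% higher and 36% lower, and 8 of the 16 falls became called rises. That offset was fitted over all genes, the short pseudogenes with few week 70 counts included. Over the 77 members, the week 70 log2 fold change had a Spearman correlation with length of -0.05 without the offset and -0.45 with it. For GC content it was 0.32 without and -0.04 with the offset. The offset thus left the members with a stronger length trend at week 70, unlike at day 15. With the offset and pseudogene counts added together, 55 were called higher and 7 lower, against a background of 79.1% called, 42.4% higher and 36.7% lower.

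Several members described for the fetal groups had other patterns with age. Mrpl12 rose further, to 90.04 and 86.5 CPM (log2 fold change 0.48), whereas Mrpl11 stood at 65.7 and 47.7 CPM, on both sides of its day 15 KO values, and was not called (-0.16, adjusted p = 0.263, edgeR). Mrps18a and Mrps18b rose, by log2 fold changes of 0.81 and 0.78, while Mrps18c fell, though all 3 were called higher with the length and GC offset. Mrpl44 rose to 34.4 and 27.5 CPM (0.75), Mrpl45 to 47.4 and 47.0 (0.40), Mrpl58 to 67.0 and 64.5 (0.39) and Mrps16 to 40.0 and 30.4 (0.62). Mrps22 fell to 27.5 and 28.3 CPM, a log2 fold change of -0.45 that was 0.62 with the length and GC offset. Mrps30 stood at 21.5 and 21.4 CPM (0.31, adjusted p = 0.0349, edgeR), a call that most alternatives lost.

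Over all 3 groups, the mean CPM of 46 members ordered as WT, day 15 KO and week 70 from low to high, and for 33 of these no neighbouring groups overlapped. Day 15 KO was highest and WT lowest for 19 members, and for 8 the day 15 KO value was the lowest with week 70 highest. With pseudogene counts added, the first order held for 39 members, 28 without overlap. The share of all genes in each order was not counted. Over all genes tested, groups did not overlap for 68.3% in the day 15 comparison and 87.9% in the week 70 comparison. These orders use TMM scaling, and with plain CPM the members' sum was lower at week 70 than in day 15 KO. Among members called higher at day 15, 17 large and 9 small subunit genes were also called higher at week 70, and 11 and 5 were called lower. For these pairs of calls, too, the share of all genes was not counted, and both comparisons use the day 15 KO libraries.

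The other lists of mitochondrial translation also split with age. Over the same 95 genes, 38 were called higher and 33 lower at week 70 (40% and 34.7%, against a background of 37.6% and 44.4%), with a median log2 fold change of 0.06. With the offset the counts became 43 and 23 (45.3% and 24.2%, against a background of 43.1% and 36%), with a median of 0.28. With upper-quartile scaling they became 27 and 42 (28.4% and 44.2%, against 32.4% and 49.8%), with a median of -0.19. Translation factors had 9 higher and 6 lower, and Slirp had the largest fall, from 24.5, 17.98 and 24.7 CPM to 0.528 and 1.73. Lars2 was higher at week 70 than in day 15 KO, by a log2 fold change of 2.88 (SE 0.18), at 343 and 376 CPM. Genes of mitochondrial transcription and RNA processing had 5 of 24 higher and 11 lower, with a median of -0.35, but with the length and GC offset 7 were higher and 6 lower and the median was 0.27. Of the 9 regulators, 4 were called higher and 5 lower. Nrf1 fell by 1.06 on the log2 scale and Gabpa fell by 1.28, while Yy1 rose by 0.56. Nuclear oxidative phosphorylation genes had 76 of 95 tested called higher and 5 lower, with a median of 0.87. Cytosolic ribosomal protein genes had 62 of 80 tested called higher and 15 lower, with a median of 2.81. With pseudogene counts added, 16 of 78 were higher and 51 lower, with a median of -0.64.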

How the data were processed

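Raw read counts per gene were deposited by the authors as 1 table of 34299 genes by 8 libraries, with no normalization. The submitters' processing notes name FastQC, cutadapt, Trimmomatic, HISAT2, featureCounts and edgeR and the builds GRCm38 and GRCm39, without roles. The strand setting, the annotation and the treatment of reads with several matches are not given in the sources used here. Of the gene rows, 351 have a blank name and were tested by identifier.

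Groups were compared with edgeR 4.0.16 (R 4.3.3): filterByExpr, TMM scaling, quasi-likelihood F-tests, two-sided, and Benjamini-Hochberg adjustment over all genes tested, with a threshold of 0.05. Only the libraries of the groups compared entered a fit. The standard error is the log2 fold change divided by the square root of F. At the totals given, 3 counts correspond to 0.144 to 0.213 CPM, which covers counting error only. Transcript length (the median-length basic protein-coding transcript), GC content and gene coordinates come from GENCODE release 21 for mouse (GRCm38), and 97.3% of identifiers matched. Pseudogenes were assigned to parents with minimap2 2.31 at 50% or more aligned and 85% or more identity. Alternatives were DESeq2 1.42.0, other scalings and filters, a length and GC offset (mgcv 1.9.3), added pseudogene counts, a replicate block and leaving out each library. The fits were tested on simulated data. Promoter sequences are from RefSeq (GRCm38.p6).

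Genes named are, in each comparison, the 5 members with the largest rise and the 5 with the largest fall among those called, with a mean of at least 50 counts and groups without overlap, plus stated members of each role whatever their values. Of the other lists, only some of the extremes and some stated genes are named. Pairs of neighbouring genes, Mrpl27, Mrps5, Ncapd2, Psma2, Dap3, Chchd1 and Yy1, and the leading contributors to the sums, were named after their values were seen. The members and lists were chosen with earlier results of these data known.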

Additional observations from a re-analysis of the deposited data

How the results depend on the processing

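The day 15 direction of both subunits held under every alternative run. For the large subunit, whose median log2 fold change was 0.52, alternatives gave 0.49 (all 8 libraries in one fit), 0.35 (length and GC offset), 0.43 (no filter), 0.33 (offset with pseudogenes added), 0.35 (offset with the replicate block) and 0.70 (upper-quartile scaling), and 0.48 to 0.56 with a library left out. For the small subunit, at 0.43, the same alternatives gave 0.39, 0.38, 0.34, 0.33, 0.36 and 0.60, and 0.37 to 0.47. Upper-quartile scaling left 1 member lower. In the 4 translation lists the 35 lower calls became 16 with the offset and 21 with upper-quartile scaling. Mrpl4 turned from -0.25 to 0.0766 with the offset, 0.0679 with the offset and pseudogenes added and 0.0769 with the offset and the block.

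The week 70 comparison depended more on the processing. The 46 rises became 28 with upper-quartile scaling, and the 16 falls became 1 with the offset, 7 with the offset and pseudogenes added, 1 with the offset and block and 26 with upper-quartile scaling. The large subunit median of 0.39 was 0.36 (DESeq2, RLE scaling and a mean of at least 10 counts), 0.49 (all 8 libraries), 0.83 (offset), 0.37 (no filter), 0.26 (pseudogenes added), 0.56 (both), 0.82 (offset with block), 0.14 (upper-quartile) and 0.37 to 0.39 with a library left out. The small subunit median of 0.42 was 0.52 (all 8 libraries), 0.81 (offset), 0.34 (pseudogenes added), 0.69 (both), 0.82 (offset with block) and 0.17 (upper-quartile). Reversed with pseudogenes added were Mrpl23 (-0.0313, and -0.0112 with the offset too) and Mrps33 (-0.19). Reversed with the offset, and in the same order with offset and block, were Mrpl33 (0.87 and 0.88), Mrpl32 (0.0946 and 0.11), Mrpl52 (0.81 and 0.81), Mrps18c (1.06 and 1.10) and Mrps22 (0.62 and 0.55). With the offset and pseudogenes added, Mrpl32 was 0.0718, Mrps18c 0.42 and Mrps22 0.32. The cause was not tested.

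The ratios of the subunit sums, 1.94, 2.08 and 1.96 in WT, day 15 KO and week 70, were 2.17, 2.29 and 2.26 with subunits by structure and 1.26, 1.37 and 1.41 as medians per kilobase. With pseudogenes added, the fetal groups had 1.85 and 1.97.

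Same-numbered libraries did not deviate together at day 15 (correlations of -0.14, -0.17 and -0.15), so the replicate number was not taken as a pairing. With a replicate block, 55 members were called higher and 4 lower at day 15, and 42 and 16 at week 70. Every sample correlated best with another number at day 15.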
